A study of Homo sapiens with 60 samples.

Results

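The comparison described here is 10 µM lead (Pb) against 0 µM at day 15 of neuronal differentiation of SH-SY5Y cells, read across all genes. Its members are the libraries titled with day 15 and either 10 µM or 0 µM, 6 of the 60 libraries in the table, with 3 replicates at each dose. SH-SY5Y is a human neuroblastoma line of noradrenergic character, used as a model because it takes on neuronal features when differentiated. Pb was added from day 5 of an 18-day protocol and renewed at each medium change, so that the 10 µM dishes had been exposed for 10 days and the 0 µM dishes had gone through the same protocol without Pb. The same design was applied at days 6, 9, 12, 15 and 18 with doses of 0, 0.16, 1.26 and 10 µM. All cells were wild type, came from 1 line at passage 39 and grew in 15 cm dishes, with 1 dish per replicate, so the spread between replicates is that between dishes of 1 culture. The lead compound is not given in the sources used here.

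Lead is a toxic divalent metal. In nerve cells it is known to enter through calcium routes, to displace calcium and zinc from proteins, to bind thiols, to inhibit heme synthesis and to raise oxidative and endoplasmic reticulum (ER) stress. Cells answer metals and misfolded proteins with dedicated programmes: metallothioneins bind metal ions, NRF2 drives antioxidant enzymes, and the unfolded protein response raises ER chaperones. Differentiating neuroblastoma cells also leave the cell cycle, extend processes and make neurotransmitter and neuropeptide genes.

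Levels are given in counts per 1000000 assigned reads (CPM). A log2 difference is the mean of log2(CPM + 1) at 10 µM minus that at 0 µM, with the standard error (SE) of the model, and it understates the change of genes near or below 1 CPM. Adjusted p-values are those of limma with Benjamini-Hochberg adjustment over all 15263 genes tested, and a gene is said to have risen or fallen only where the adjusted p was under 0.05. Values of replicates are listed in the order 1, 2, 3. Depth ran from 24.9 to 41.1 M reads assigned to genes in the 6 libraries (M stands for 1000000), and 3 reads corresponded to 0.073 to 0.12 CPM. Of 16 markers of the line, 14 were at 1 CPM or more in all 6 libraries, among them the dopamine beta-hydroxylase DBH at 9307 CPM or more. MYCN lay between 0.461 and 1.563 CPM. Of 28 markers of glial, epithelial and blood cells, 23 were under 1 CPM in all 6 libraries, and the glial genes PMP22, S100B and ERBB3 and the epithelial gene EPCAM were among those above it. The summed level of the glial markers was 51.0 to 54.5 CPM at 0 µM and 58.3 to 62.9 CPM at 10 µM, most of it from PMP22, while SOX10, the defining gene of that lineage, stayed at or under 0.281 CPM. The part of such cells in the results was not tested. Replicate 3 of 0 µM stood apart in that its levels fell with transcript length (log2 slope of -0.197 per log10 of length, relative to the mean of the day, against -0.026 and -0.0244 in the other 0 µM replicates and 0.0137, 0.159 and 0.0476 at 10 µM), and counts without it are given beside the results. By a chi-square statistic per degree of freedom over the reads recovered from the CPM values, which grows with depth, replicate 3 of 10 µM differed most from its group (23.28 and 25.51, against 9.334 for the other pair). At 0 µM it was replicate 1 that differed more (17.23 and 15.99, against 9.525).

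At 10 µM, 867 of 15263 genes tested had changed (5.68%). Of these, 381 were higher (2.5%) and 486 lower (3.18%). Most changes were small. The median size among the 867 genes was 0.37 on the log2 scale, 10 genes rose by 1 or more and 2 fell by 1 or more. The 3 and 3 libraries did not overlap for 860 of the 867 genes, against 23.8% of all genes tested (13.7% with higher and 10.1% with lower levels at 10 µM). The difference between these same libraries was used to call the genes, so the lack of overlap is not separate evidence. The count was 490 without replicate 3 of 0 µM (185 higher and 305 lower), 468 without replicate 2 of 10 µM (202 higher and 266 lower) and 418 when only the 6 libraries were fitted (191 higher and 227 lower). Without replicate 3 of 10 µM it was 663 (235 higher and 428 lower). The genes that rose made up 43.9% of the calls, 28.7% after median-ratio rescaling of the libraries and 32.8% with edgeR on the recovered reads. The median difference of all genes was 0.03, and -0.0066 after the rescaling. Counts of differences above or below 0 in a list can thus depend on the scaling, and the share over all genes is not given here. List counts stand beside 2.5% of all genes that rose and 3.18% that fell. Lower genes had shorter transcripts (median 2221 bases) than higher genes (3502) and all genes tested (3560), and 705 of the 867 genes also passed after a correction for GC content and length. Because RNA came from whole dishes, a lower level in each cell and fewer cells with the transcript cannot be told apart.

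**Figure D1:**
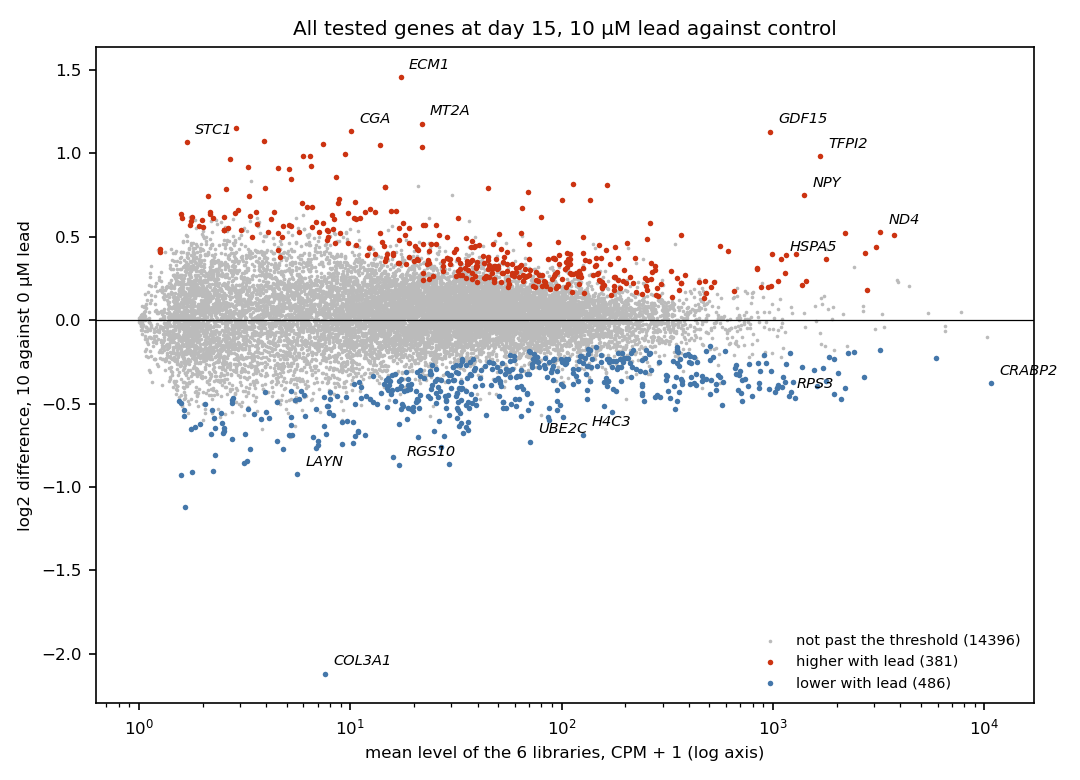
Log2 difference between 10 and 0 µM Pb at day 15 (y axis) against the mean level of the 6 libraries (CPM + 1, log axis), 1 point per gene tested. Red points are the 381 genes that rose and blue points the 486 that fell. COL3A1 lies alone at -2.12, while abundant genes such as GDF15 and TFPI2 rose by about 1.13 and 0.98.

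Genes named as the largest rises and falls had to pass, reach 5 CPM in 1 dose and show no overlap between the doses. Among the rises named, ECM1 had the largest log2 difference. This gene (chromosome 1, 150508109 to 150513789 in GRCh38.p14), a secreted glycoprotein of the extracellular matrix, was at 7.46, 7.44 and 9.75 CPM without Pb and at 20.5, 27.9 and 24.7 CPM with 10 µM. Its log2 difference was 1.46 (SE 0.151, adjusted p = 4.07e-09). GDF15 (chromosome 19, 18386158 to 18389176), a stress-induced cytokine of the TGF-beta family, went from 602, 568 and 648 CPM to 1326, 1270 and 1386 CPM, a rise of 2.19-fold (log2 difference 1.13, SE 0.105, adjusted p = 3e-10). TFPI2 (chromosome 7, 93885396 to 93890753), a secreted inhibitor of serine proteases, had the smallest p of all rises: its levels were 1069, 1126 and 1179 CPM without Pb and 2208, 2189 and 2268 CPM with it (log2 difference 0.98, SE 0.0764, adjusted p = 1.12e-12). In both genes the replicates of a dose lay close together and far from the other dose.

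CGA (chromosome 6, 87085498 to 87095106) encodes the alpha chain shared by the glycoprotein hormones. It stood at 5.70, 5.67 and 4.50 CPM without Pb and at 12.5, 12.4 and 13.3 CPM with 10 µM (log2 difference 1.14, SE 0.122, adjusted p = 5.39e-09). The other large rises were the keratin gene KRT86 (1.05), the long non-coding RNA FAM30A (0.99), the membrane scaffold gene MPP4 (0.99), the calcium channel subunit gene CACNA2D3 (0.99) and the apelin receptor gene APLNR (0.92). KRT86 has near-identical relatives among the hair keratins, so its reads could be split between genes. The call of CACNA2D3 was lost without replicate 2 of 10 µM (adjusted p = 0.0597).

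Less even rises were seen in SOX9, a transcription factor of neural crest and glial progenitors, and in DUSP5, a phosphatase that switches off nuclear ERK. SOX9 was at 7.54, 18.2 and 14.6 CPM without Pb and at 32.3, 32.6 and 19.0 CPM with it (log2 difference 1.04, SE 0.273, adjusted p = 0.0129). DUSP5 was at 2.47, 4.79 and 4.17 CPM and at 10.3, 10.7 and 6.09 CPM (log2 difference 1.06, SE 0.281, adjusted p = 0.0146). In both genes replicate 1 was the lowest control and replicate 3 the lowest Pb library, and both calls were lost without replicate 1 of 0 µM, or without replicate 1 or 2 of 10 µM. STC1, a secreted glycoprotein induced by several stresses, was almost unread in the controls (0, 0.219 and 0.0401 CPM) and was at 1.48, 0.912 and 1.46 CPM with Pb (log2 difference 1.07, SE 0.101, adjusted p = 3.38e-10). Its control levels rest on few reads. At day 15 only libraries with Pb reached 1 CPM, the level of the filter. At day 18 its means were 4.95 CPM at 10 µM and 0.289 CPM without Pb. Its p is therefore not free of that selection, and it was tested in only 12 of the 15 alternatives.

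The largest fall was that of COL3A1 (chromosome 2, 188974373 to 189012746), which encodes the chain of fibrillar type III collagen. Its levels were 10.8, 11.4 and 11.8 CPM without Pb and 1.20, 2.38 and 2.05 CPM with 10 µM, a ratio of 0.166 (log2 difference -2.12, SE 0.225, adjusted p = 4.81e-09). No other gene with at least 5 CPM in 1 of the doses fell by as much as 1 on the log2 scale. LAYN (chromosome 11, 111540280 to 111561745), a membrane receptor for hyaluronan, was next with 6.59, 7.201 and 5.30 CPM against 2.52, 3.16 and 2.92 CPM (log2 difference -0.92, SE 0.163, adjusted p = 0.000115). RGS10, which speeds the shut-off of G protein signals, fell from 23.2, 20.0 and 19.3 CPM to 10.98, 10.5 and 11.4 CPM (log2 difference -0.87, SE 0.159, adjusted p = 0.00021).

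Most of the other large falls were in genes used by dividing cells. They were the centromeric histone CENPA (-0.86), PIMREG (-0.76), the kinetochore gene SKA3 (-0.74), the ubiquitin-conjugating enzyme UBE2C (-0.73) and the histones H3C8 (-0.77) and H1-4 (-0.75). The immunoproteasome subunit PSMB8 (-0.77) and the microtubule-bound ubiquitin ligase MID1 (-0.75) were also among the 12 largest. The calls of H3C8 and PSMB8 were lost without replicate 3 of 0 µM, and that of H3C8 also without replicate 2 of 10 µM.

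**Figure D2:**
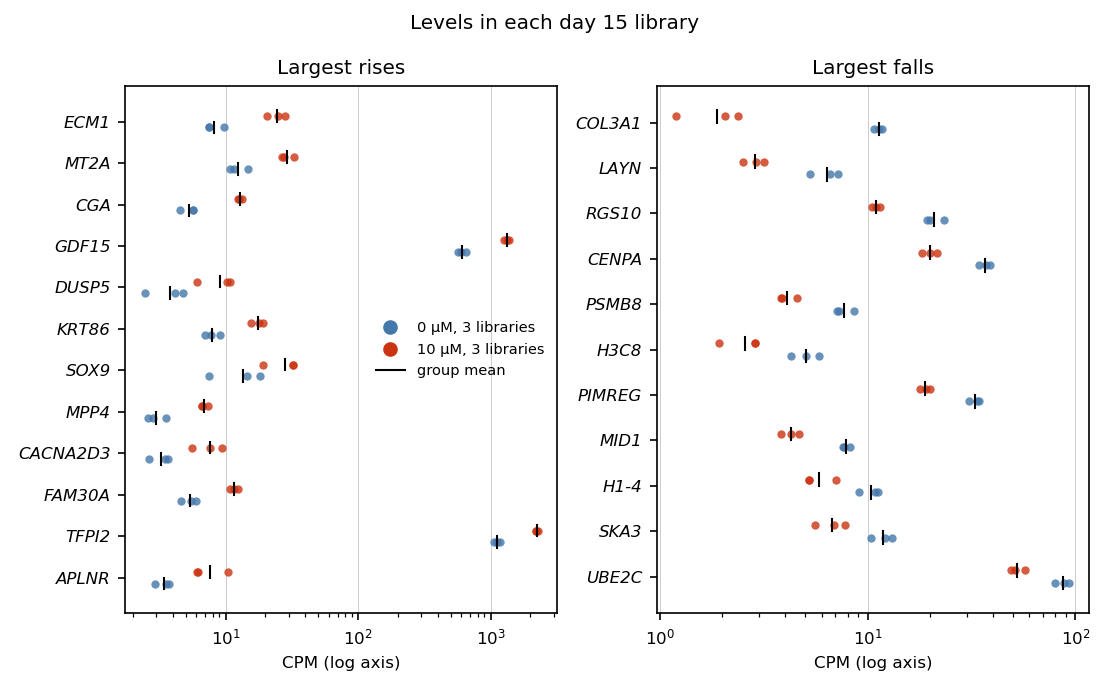
Level in CPM (log axis) of the largest rises (left) and falls (right) named in the text, in each of the 6 day 15 libraries; blue points are 0 µM, red points 10 µM and black ticks group means. Genes with overlapping doses were left out by the rule that picked them.

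Among genes that handle metals, a pair of metallothioneins rose. Metallothioneins are small cysteine-rich proteins that bind zinc, copper and toxic metals. MT2A (chromosome 16, 56608584 to 56609497) was at 11.6, 10.7 and 14.7 CPM without Pb and at 32.8, 26.7 and 27.7 CPM with 10 µM (log2 difference 1.18, SE 0.123, adjusted p = 4.11e-09). MT1E was low in the controls (0.570, 0.632 and 1.32 CPM) and rose to 2.88, 2.54 and 2.24 CPM (log2 difference 0.97, SE 0.196, adjusted p = 0.000777). Metallothionein genes are close copies of each other, so reads of MT1E and MT2A may be shared.

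Of 11 tested genes for metallothioneins and zinc transport, 2 rose and none fell, with a median difference of 0.15 against 0.03 for all genes. The zinc exporter SLC30A1, a target of the same metal-sensing factor, had a difference of 0.80 that missed the threshold (SE 0.258, adjusted p = 0.0538), with 13.4, 17.9 and 11.1 CPM in the controls and 29.2, 30.8 and 17.1 CPM with Pb. MT1F had overlapping doses (log2 difference 0.40, adjusted p = 0.143). Metallothionein promoters are known for metal response elements, bound by the zinc-sensing factor MTF1. The sequence shown is the stretch directly before the start of MT2A, the gene of the list with the largest log2 difference (RefSeq, GRCh38.p14, chr16:56608334-56608583, plus strand), with matches to TGCACNC or TGCGCNC on either strand in capitals.
MT2A: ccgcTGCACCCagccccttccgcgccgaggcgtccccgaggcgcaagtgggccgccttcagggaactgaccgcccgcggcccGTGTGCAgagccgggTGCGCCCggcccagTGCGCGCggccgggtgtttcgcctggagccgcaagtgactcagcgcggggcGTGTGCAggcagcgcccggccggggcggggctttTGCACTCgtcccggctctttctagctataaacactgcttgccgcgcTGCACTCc
The stretch held 7 matches. At least 1 match was found in 39.6% of the 11976 tested genes with a RefSeq promoter, in 24.8% of all 35116 promoters of the same length, and in 4 of the 8 list members with one. The match is to letters and was not tested as a binding site.

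Genes for heme and iron, a pathway known to be blocked by Pb at the enzyme level, moved little. Of 8 heme synthesis genes only ALAS1, the first enzyme of the pathway in non-erythroid cells, rose (54.6, 55.9 and 49.2 CPM to 61.6, 68.0 and 69.2 CPM; log2 difference 0.31, SE 0.0837, adjusted p = 0.0161). Its call was lost without replicate 3 of 0 µM, or without replicate 2 or 3 of 10 µM. Of 10 iron handling genes, the ferrireductase STEAP3 rose (0.51, SE 0.135, adjusted p = 0.0131), a call that was lost without replicate 2 of 0 µM, or without replicate 2 or 3 of 10 µM.

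The antioxidant genes did not move as a block. Of 23 NRF2 targets, 5 rose and 1 fell, with a median difference of 0.17. The quinone reductase NQO1, a classical NRF2 target, rose from 44.0, 36.3 and 41.9 CPM to 53.4, 59.0 and 63.6 CPM (log2 difference 0.52, SE 0.109, adjusted p = 0.00127). Also raised were OSGIN1 (0.68), which restrains growth under oxidative stress, and the NADPH-producing or linked enzymes ME1 (0.25) and TKT (0.23), while TALDO1 of the same sugar phosphate route fell (-0.22), a call that was lost without replicate 1 or 3 of 0 µM or replicate 1 or 2 of 10 µM. The calls of OSGIN1 and ME1 were lost without replicate 1 or 3 of 0 µM or replicate 2 or 3 of 10 µM, that of ME1 also without replicate 1 of 10 µM and with edgeR, and that of TKT without replicate 3 of 10 µM. The count of rises was 3 without replicate 3 of 0 µM, 2 without replicate 2 or replicate 3 of 10 µM, 2 after median-ratio rescaling, 2 after the correction for GC content and length, and 1 when only the 6 libraries were fitted. Of 14 peroxidases and dismutases none rose and 3 fell: GPX4, which clears lipid peroxides (-0.26), and the peroxiredoxins PRDX2 (-0.26) and PRDX6 (-0.18). The count of falls was 1 without replicate 3 of 0 µM and 0 without replicate 2 of 10 µM.

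Chaperones of the ER rose together, by small amounts. Of 24 tested genes of the unfolded protein response, 14 rose and none fell, all 24 differences were above 0, and their median was 0.24. HSPA5, the main ER chaperone known as BiP, was at 967, 983 and 918 CPM without Pb and at 1154, 1235 and 1311 CPM with 10 µM, a rise of 1.29-fold (log2 difference 0.37, SE 0.0467, adjusted p = 3.11e-07). DNAJB11, a co-chaperone of HSPA5, rose from 163, 162 and 157 CPM to 206, 204 and 214 CPM (log2 difference 0.37, SE 0.055, adjusted p = 6.09e-06). The disulfide isomerase PDIA4 (0.31), the degradation factor HERPUD1 (0.38), the chaperone HSP90B1 (0.24) and the calcium-binding chaperone CALR (0.24) rose as well. The count of 14 was unchanged without replicate 3 of 0 µM, and it was 9 when only the 6 libraries were fitted.

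Many ER chaperone promoters carry an ER stress response element, a spaced pair of CCAAT and CCACG bound by the nuclear factor NF-Y and the stress sensor ATF6. A match to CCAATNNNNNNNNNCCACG on either strand was found within 250 bases before the start of 7 of the 22 members with a RefSeq promoter, 5 of them among the 13 that rose. It was found in 0.142% of the tested genes with a promoter and in 0.074% of all promoters. Each match also contains a CCAAT box. The stretches of 3 chaperones that rose are shown because they hold the element (RefSeq, GRCh38.p14; match in capitals; chr9:125241344-125241593, minus strand, for HSPA5; chr12:103930160-103930409, plus strand, for HSP90B1; chr19:12938359-12938608, plus strand, for CALR).
HSPA5: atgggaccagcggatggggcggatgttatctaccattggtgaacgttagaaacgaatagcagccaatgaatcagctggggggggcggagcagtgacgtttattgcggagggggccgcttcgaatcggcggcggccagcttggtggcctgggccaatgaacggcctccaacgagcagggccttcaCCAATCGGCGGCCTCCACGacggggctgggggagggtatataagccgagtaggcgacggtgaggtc
HSP90B1: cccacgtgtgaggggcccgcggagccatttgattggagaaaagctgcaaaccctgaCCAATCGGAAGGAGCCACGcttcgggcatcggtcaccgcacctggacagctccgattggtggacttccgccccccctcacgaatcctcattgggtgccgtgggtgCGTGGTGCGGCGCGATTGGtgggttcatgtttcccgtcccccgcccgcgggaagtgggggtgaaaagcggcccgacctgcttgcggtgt
CALR: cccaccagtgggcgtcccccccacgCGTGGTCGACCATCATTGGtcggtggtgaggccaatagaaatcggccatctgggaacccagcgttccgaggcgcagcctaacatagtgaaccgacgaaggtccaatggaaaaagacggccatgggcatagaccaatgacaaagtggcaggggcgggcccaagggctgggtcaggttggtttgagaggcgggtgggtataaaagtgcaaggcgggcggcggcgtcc
HSP90B1 holds 2 matches in opposite orientations. PDIA4, DNAJB11 and HERPUD1, which also rose, have no match to these letters in the same window.

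Other stress branches moved less. Of 19 genes of the ATF4 and amino acid response, 2 rose: the stress factor ATF3 (0.34, SE 0.0981, adjusted p = 0.0253) and the amino acid transporter chain SLC3A2 (0.26, SE 0.064, adjusted p = 0.00783). The calls of both were lost without replicate 3 of 10 µM, that of SLC3A2 also without replicate 3 of 0 µM, and that of ATF3 also without replicate 1 or 2 of 0 µM, without replicate 2 of 10 µM, after rescaling and with edgeR. Of 16 heat shock genes, 2 rose, the cytosolic chaperones HSPH1 (0.25) and HSPA8 (0.18), and the call of HSPA8 was lost after rescaling. None of 20 proteasome genes passed.

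Targets of the tumour suppressor p53 rose in part. Of 22 genes, 5 rose and none fell, and the median difference was 0.18. Besides GDF15, the cell cycle inhibitor CDKN1A (p21) was at 298, 296 and 314 CPM without Pb and at 420, 411 and 464 CPM with it (log2 difference 0.51, SE 0.0798, adjusted p = 1.55e-05). The death receptor FAS (0.55), the RNA-binding gene ZMAT3 (0.28) and the nuclease AEN (0.35) also rose. The count was 3 without replicate 3 of 10 µM, where AEN was among those lost, and 4 without replicate 3 of 0 µM. The call of FAS was lost without replicate 1 or 3 of 0 µM or replicate 2 or 3 of 10 µM. ZMAT3 did not pass after the correction for GC content and length.

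Of 29 tested genes of cholesterol and fatty acid synthesis, 12 rose, none fell and 17 did not pass, and the median difference was 0.28. HMGCS1, which makes the precursor of mevalonate, went from 214, 213 and 198 CPM to 312, 324 and 302 CPM (log2 difference 0.58, SE 0.09, adjusted p = 1.19e-05). The sterol enzymes MSMO1 (0.46), SQLE (0.42) and DHCR7 (0.34) rose without overlap between the doses. The lowest Pb library of SQLE, at 182 CPM, lay above the highest control at 139.8 CPM. The count was 9 without replicate 3 of 0 µM.

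**Figure D3:**
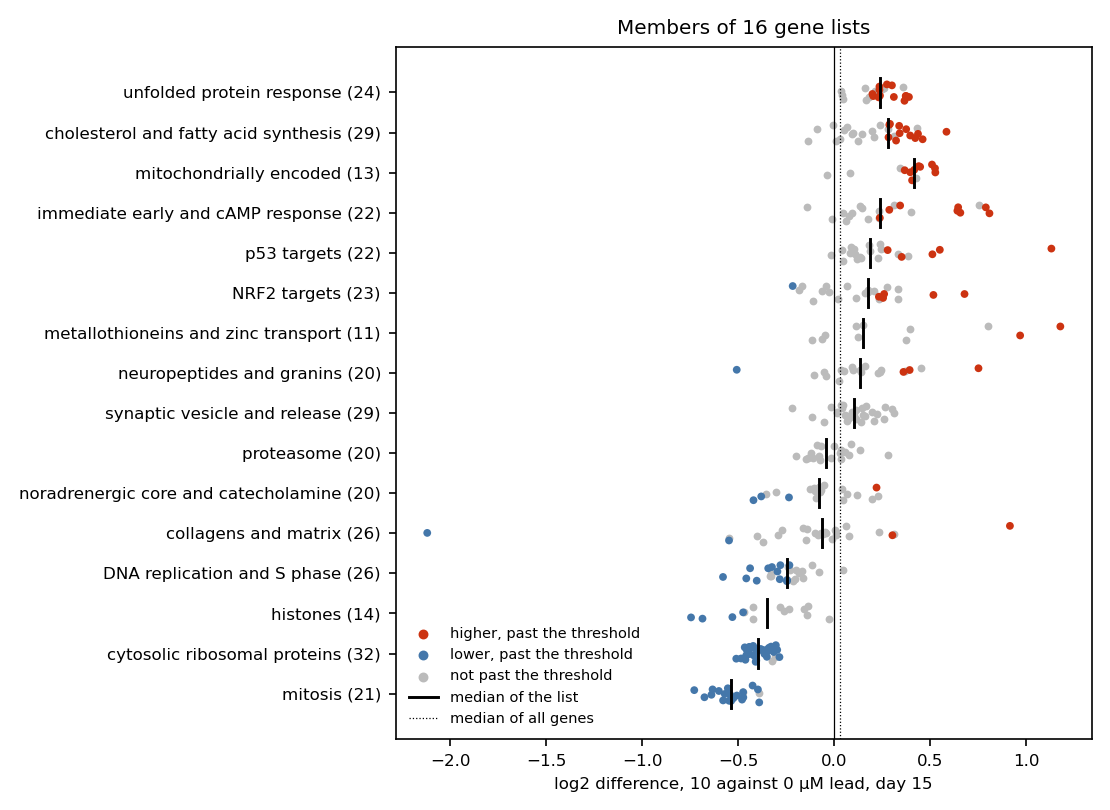
Log2 differences between 10 and 0 µM Pb at day 15 for the members of 16 gene lists, 1 point per gene tested, with the number tested in brackets; red and blue points passed the threshold, black bars are list medians and the dotted line is the median of all genes. Mitosis (19 of 21) and ribosomal protein genes (30 of 32) lie wholly below 0, and the unfolded protein response (14 of 24) wholly above it.

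Most genes of the dividing cell fell. Of 21 tested mitosis genes, 19 fell and none rose, with a median difference of -0.54 and a range of -0.73 to -0.39. UBE2C (chromosome 20, 45812644 to 45816952), which works with the anaphase-promoting complex, fell from 88.3, 80.0 and 93.3 CPM to 57.0, 48.8 and 50.9 CPM (log2 difference -0.73, SE 0.0785, adjusted p = 5.39e-09). CDC20, an activator of that complex, had the smallest p of all falls: its levels were 41.5, 40.8 and 40.7 CPM without Pb and 23.2, 23.2 and 30.1 CPM with it (log2 difference -0.68, SE 0.0703, adjusted p = 4.07e-09). The proliferation marker MKI67 fell from 119, 112 and 110 CPM to 79.5, 76.6 and 83.2 CPM (log2 difference -0.51, SE 0.0736, adjusted p = 4.69e-06). The B-type cyclins CCNB1 (-0.53) and CCNB2 (-0.55) and the survivin gene BIRC5 (-0.60) fell without overlap as well. These transcripts were still present at 10 µM, with UBE2C at 0.599 and CDC20 at 0.622 of the control mean. Without replicate 3 of 0 µM, 18 of the 21 genes fell.

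Promoters of late cell cycle genes are known for the cell cycle homology region, bound by the DREAM and MuvB complexes, and for CCAAT boxes. A match to TTTGAA on either strand lay within 250 bases before the start of 10 of the 17 mitosis genes with a RefSeq promoter, against 11.9% of tested genes with one and 13.3% of all promoters. CCAAT was found in 15 of the 17, against 40.7% of tested genes and 32.0% of all promoters. Other elements were searched for on either strand of the same window. The E2F site (TTTGGCGC or TTTCGCGC) lay in 5 of 22 replication genes, 1 of them among the 11 that fell, against 1.91% of tested genes. The antioxidant response element (TGACNNNGC) lay in 6 of 16 NRF2 targets, 1 of them among the 5 that passed, against 15.7%. The cAMP response element (TGACGTCA) lay in 3 of 19 immediate early and cAMP genes, 1 of them among the 6 that rose, against 3.37%. The stretches of 3 genes that fell are shown because they hold the element (RefSeq, GRCh38.p14; TTTGAA or its reverse complement in capitals; chr1:43358731-43358980, plus strand, for CDC20; chr15:59104896-59105145, plus strand, for CCNB2; chr10:128126424-128126673, minus strand, for MKI67).
CDC20: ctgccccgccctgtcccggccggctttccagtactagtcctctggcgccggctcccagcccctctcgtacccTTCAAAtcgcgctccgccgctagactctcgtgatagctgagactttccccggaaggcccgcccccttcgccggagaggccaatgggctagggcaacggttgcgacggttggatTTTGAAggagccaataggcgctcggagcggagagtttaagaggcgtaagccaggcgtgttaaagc
CCNB2: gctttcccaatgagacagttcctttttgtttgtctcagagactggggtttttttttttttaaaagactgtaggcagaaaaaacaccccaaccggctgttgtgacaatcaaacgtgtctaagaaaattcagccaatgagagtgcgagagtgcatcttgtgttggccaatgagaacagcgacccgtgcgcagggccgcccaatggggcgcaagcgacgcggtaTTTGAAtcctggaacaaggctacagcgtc
MKI67: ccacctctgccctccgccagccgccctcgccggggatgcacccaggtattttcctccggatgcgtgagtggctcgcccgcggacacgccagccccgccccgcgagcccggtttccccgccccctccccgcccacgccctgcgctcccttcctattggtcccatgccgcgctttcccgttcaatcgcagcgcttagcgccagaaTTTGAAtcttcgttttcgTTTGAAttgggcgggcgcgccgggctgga
CDC20 and MKI67 hold 2 matches each and CCNB2 holds 1. The 6 letters are short, and a match describes the sequence without showing that a factor binds it.

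Of 26 tested DNA replication genes, 12 fell and none rose, and the median difference was -0.25. RRM2, the regulated subunit of the enzyme that makes deoxynucleotides, fell from 105, 99.1 and 103 CPM to 69, 67.6 and 68.0 CPM (log2 difference -0.58, SE 0.0624, adjusted p = 5.39e-09). Subunits of the replicative helicase fell by less: MCM7 by 0.34, MCM5 by 0.30 and MCM3 by 0.28 on the log2 scale. The count was 11 without replicate 3 of 0 µM and 4 when only the 6 libraries were fitted. Of 14 histone genes 4 fell: H4C3 (-0.69), H1-4 (-0.75), H1-2 (-0.53) and H2AC6 (-0.47). Replicate 3 of 0 µM had the highest H4C3 and H1-2 levels, 193 and 9.87 CPM, and without it the difference of H1-2 was -0.31 and was no longer called (adjusted p = 0.352). Many histone genes are near-identical, so their reads could be split.

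Nearly all listed genes for proteins of the cytosolic ribosome fell, each by a similar and modest amount. Of 32 ribosomal protein genes 30 fell and none rose, and the differences ran from -0.51 to -0.29 with a median of -0.40. RPS3 was at 1405, 1324 and 1371 CPM without Pb and at 1013, 916 and 1068 CPM with 10 µM (log2 difference -0.45, SE 0.0684, adjusted p = 7.8e-06). RPLP0 fell by 0.40, RPS6 by 0.43 and RPL10 by 0.44 on the log2 scale, without overlap. Together the 32 genes held 34115, 32564 and 36181 CPM in the controls and 27358, 24272 and 27297 CPM with Pb. These genes have short transcripts and many processed copies in the genome. The count was 30 after the correction for GC content and length, 22 without replicate 3 of 0 µM and 21 without replicate 2 of 10 µM.

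Transcripts encoded by the mitochondrial genome took a larger share of reads. Of 13 tested, 9 rose and none fell, with a median of 0.42. ND4, a subunit of respiratory complex I, was at 2490, 2701 and 2714 CPM without Pb and at 4260, 3537 and 3622 CPM with it (log2 difference 0.53, SE 0.079, adjusted p = 7.33e-06). ND5 (0.52), ND1 (0.51) and the cytochrome oxidase subunit COX2 (0.44) rose too. Summed over the list, the level was 15462, 16723 and 16505 CPM in the controls and 25261, 20543 and 20845 CPM at 10 µM. Replicate 1 of 10 µM was highest in the genes named, and 5 genes passed without it. Of 22 nuclear genes of the respiratory chain, 1 passed, COX5A, which fell (-0.28), a call that was lost without replicate 3 of 0 µM or replicate 2 of 10 µM. The share of mitochondrial reads can also move with RNA quality and cell state, and their part was not tested.

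In glycolysis and the hypoxia response, single genes moved in opposite directions. Of 27 tested, 2 rose and 3 fell. PFKFB3, which makes the activator of phosphofructokinase, rose from 31.4, 33.3 and 30.5 CPM to 51.5, 58.9 and 57.0 CPM (log2 difference 0.79, SE 0.147, adjusted p = 0.000228), and STC1 was the other. The glycolytic enzymes GAPDH (-0.20), TPI1 (-0.21) and LDHA (-0.18) fell slightly, and none of the 3 passed without replicate 1 of 0 µM, replicate 1 of 10 µM or replicate 2 of 10 µM, while 1 passed without replicate 3 of 0 µM.

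Neuronal identity genes changed little, with a few exceptions in the noradrenergic programme. None of 29 synaptic vesicle genes, 22 voltage-gated channel genes, 15 glutamate and GABA receptor genes or 12 cholinergic genes passed. The synaptic list had a median of 0.10, and SNAP25, a core fusion protein, had a difference of 0.14 (SE 0.0475, adjusted p = 0.0667). Of 20 noradrenergic genes 3 fell and 1 rose. The noradrenaline transporter SLC6A2 (chromosome 16, 55655988 to 55706192) fell from 105, 108 and 109 CPM to 82.3, 78.2 and 79.8 CPM (log2 difference -0.42, SE 0.0776, adjusted p = 0.000216). DDC, which makes dopamine, fell from 284, 263 and 265 CPM to 199.8, 206 and 217 CPM (log2 difference -0.38, SE 0.085, adjusted p = 0.00255). The transcription factor TFAP2B fell (-0.24). GATA3 rose (0.22), a call that was lost without replicate 2 or 3 of 0 µM or of 10 µM, after rescaling and with edgeR.

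Of 19 neuronal cytoskeleton genes 2 fell, the neurofilament gene NEFM (-0.28, SE 0.0484, adjusted p = 7.3e-05) and the tubulin-binding gene STMN1 (-0.26, SE 0.0554, adjusted p = 0.00162). Of 29 growth cone and axon guidance genes 1 passed. PLXNA2, a receptor for semaphorins, rose from 74.8, 79.4 and 69.8 CPM to 110.3, 132 and 129 CPM (log2 difference 0.72, SE 0.143, adjusted p = 0.000588).

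Neuropeptide genes moved in both directions. Of 20 tested, 3 rose and 1 fell. NPY (chromosome 7, 24284190 to 24291862), a peptide co-released with noradrenaline, rose from 941, 1012 and 1183 CPM to 1888, 1620 and 1758 CPM (log2 difference 0.75, SE 0.0917, adjusted p = 1.18e-07). The granin SCG2 rose from 990.4, 981 and 1004 CPM to 1304, 1270 and 1334 CPM (log2 difference 0.39, SE 0.0473, adjusted p = 9.23e-08). VIP rose (0.36, SE 0.0941, adjusted p = 0.0124), a call that was lost without replicate 2 of 0 µM or replicate 1 or 3 of 10 µM. NMU fell from 42.4, 36.2 and 43.0 CPM to 28.9, 26.6 and 28.9 CPM (log2 difference -0.51, SE 0.0867, adjusted p = 6.94e-05).

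Immediate early genes respond to growth factors, calcium and stress. In the list of such genes and of cAMP targets, 8 of 22 members rose, none fell and 14 did not pass, with a median of 0.24. EGR1 (chromosome 5, 138465479 to 138469303) was at 93.3, 129 and 132 CPM without Pb and at 235, 232 and 159 CPM with it (log2 difference 0.81, SE 0.177, adjusted p = 0.00199). NR4A1, a nuclear receptor, rose from 7.06, 7.13 and 5.66 CPM to 9.62, 12.2 and 10.8 CPM (log2 difference 0.64, SE 0.127, adjusted p = 0.000588). The synaptic gene ARC (0.66) and EGR3 (0.79) rose as well, EGR3 from 1.12 CPM or less, and the call of ARC was lost without replicate 2 of 10 µM and that of EGR3 with edgeR. The count was 5 without replicate 2 of 0 µM or replicate 2 of 10 µM, 5 with edgeR and 4 when only the 6 libraries were fitted. Of 16 MAP kinase feedback genes 3 rose, DUSP5 and the ERK phosphatases DUSP4 (0.27) and DUSP6 (0.23), the last of which did not pass after the correction for GC content and length.

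Calcium handling showed 3 changes in 25 genes: the plasma membrane pump ATP2B1 (0.22) and the store release channel ITPR1 (0.37) rose and the calmodulin gene CALM3 (-0.18) fell. The calls of ATP2B1 and ITPR1 were both lost without replicate 3 of 0 µM, that of ATP2B1 also after the correction for GC content and length, and that of ITPR1 also without replicate 1 of 0 µM or replicate 2 of 10 µM. In the retinoic acid and BMP list of 21 genes, 2 rose and 2 fell. CRABP2, a carrier of retinoic acid, fell from 11989, 11463 and 12934 CPM to 9458, 8497 and 10110 CPM (log2 difference -0.38, SE 0.0618, adjusted p = 3.83e-05). CRABP1 fell (-0.36), a call that was lost without replicate 2 of 10 µM, and ID3, a target of bone morphogenetic proteins, rose (0.43, SE 0.0881, adjusted p = 0.00101). CYP26A1, which degrades retinoic acid, rose by 0.21 on the log2 scale, a call that was lost without replicate 3 of 0 µM or of 10 µM, after rescaling and with edgeR.

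Of 26 collagen and matrix genes 2, COL3A1 and THBS1, fell and 2 rose, and the median difference was -0.07. The metalloprotease inhibitor TIMP1 rose from 167, 169.9 and 188 CPM to 222, 203 and 223 CPM (log2 difference 0.30, SE 0.068, adjusted p = 0.00263), and the secreted glycoprotein THBS1 fell (-0.55), a call that was lost without replicate 1 or 2 of either dose. Of 24 genes of the mesenchymal neuroblastoma state 2 rose and 1, LAYN, fell. The cadherin CDH11 rose from 122, 129.8 and 124 CPM to 163, 177 and 175 CPM (log2 difference 0.45, SE 0.108, adjusted p = 0.00545). ANXA2 rose (0.33, SE 0.101, adjusted p = 0.0422), and its call was lost without any 1 of the 6 libraries, after rescaling, after the correction for GC content and length and with edgeR. None of 18 integrin and laminin genes passed. In the remaining lists, CLU, a secreted chaperone listed with the amyloid genes (1 of 16), rose from 216, 208 and 204 CPM to 279.7, 296 and 305 CPM (log2 difference 0.49, SE 0.0637, adjusted p = 5.57e-07). Of 12 NF-kB targets, 2 fell, the chemokine CCL2 (-0.68) and the inhibitor NFKBIA (-0.28), and neither passed without replicate 2 of 0 µM or replicate 3 of 10 µM. Of 6 long nuclear-retained RNAs KCNQ1OT1 rose (0.58), a call that was lost without replicate 3 of 0 µM, replicate 1 of 10 µM or replicate 3 of 10 µM and after the correction for GC content and length. No gene of the HOX, glial, or epithelial and blood lists passed.

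The lower doses at day 15 were set against the same 0 µM libraries and are given side by side. At 1.26 µM, 192 genes passed (1.26%), 50 higher (0.328%) and 142 lower (0.93%). At 0.16 µM, 2 passed (0.0131%), both lower. GDF15 stood at 606 ± 40.4 CPM (SD, n = 3) without Pb, 786 ± 29.4 at 0.16 µM, 872 ± 69.2 at 1.26 µM and 1327 ± 58.2 at 10 µM. COL3A1 was at 11.3 ± 0.498, 3.14 ± 0.455, 2.63 ± 0.32 and 1.88 ± 0.606 CPM at the same doses, so that most of its fall was present at the lowest dose (log2 difference -1.58, SE 0.225, adjusted p = 0.000136 at 0.16 µM). MT2A showed another pattern, with 12.4 ± 2.07, 11.4 ± 1.14, 13.5 ± 3.09 and 29.1 ± 3.27 CPM, and its differences at 0.16 µM (-0.09) and 1.26 µM (0.10) did not pass.

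SLC6A2 also differed from the control at 10 µM but did not pass at 1.26 µM, where its log2 difference was -0.03 (SE 0.0776). CDC20 stood at 41.0 ± 0.463, 34.8 ± 2.11, 26.1 ± 0.844 and 25.5 ± 3.96 CPM, with nearly the same level at 1.26 as at 10 µM. Of the lists, mitosis had 15 members lower at 1.26 µM with a median of -0.38, replication 10 (-0.21), ribosomal proteins 13 (-0.29), and the unfolded protein response 7 higher (0.18). For mitochondrially encoded transcripts none passed at 1.26 µM (median 0.15). Whether a gene's differences at 10 and 1.26 µM differ from each other was not tested.

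**Figure D4:**
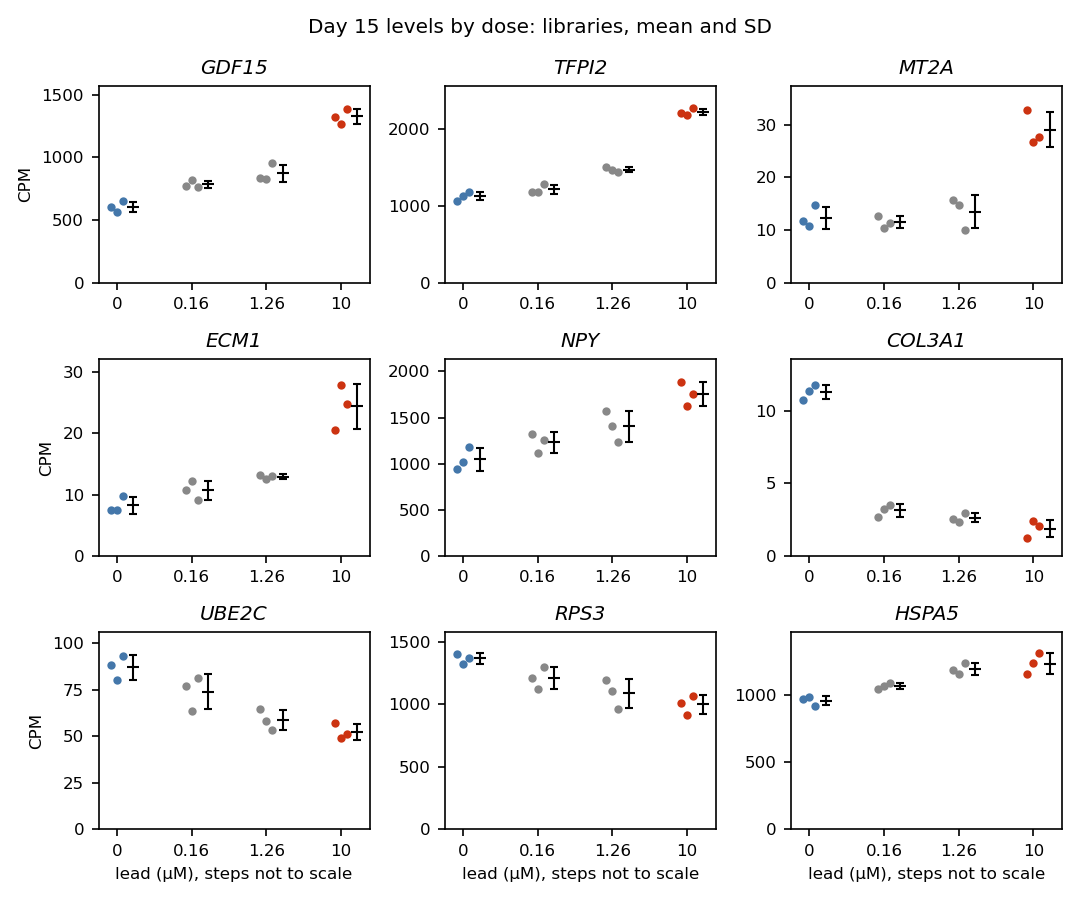
Levels of 9 genes at day 15 in CPM (y axes from 0) at 0, 0.16, 1.26 and 10 µM Pb (steps not to scale); points are libraries and bars the mean with 1 SD, n = 3. MT2A lies between 11.4 and 13.5 CPM at the 3 lower doses and at 29.1 CPM at 10 µM, whereas COL3A1 is already low at 0.16 µM (3.14 CPM against 11.3 CPM).

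Tests of the difference between days asked where the response at day 15 departed from that 3 days before or after. The 10 µM difference at day 12 called 819 genes (5.37%, with 3.03% higher and 2.34% lower) and that at day 18 called 4418 (28.9%, with 12.1% higher and 16.9% lower). The difference at day 15 was unlike that at day 12 for 294 genes (1.93%), above it for 100 (0.655%) and below it for 194 (1.27%), and unlike that at day 18 for 802 genes (5.25%), above it for 585 (3.83%) and below it for 217 (1.42%). Day 18 libraries form another library pool, and each difference was taken within 1 pool. Levels at day 18 set beside those of earlier days cross pools, so day and pool cannot be told apart there. Against day 12 the count was 101 without replicate 3 of 0 µM and 66 without replicate 2 of 10 µM at day 15. It was 171 and 104 without replicates 2 and 3 of 0 µM at day 12, 188 and 120 without replicates 2 and 3 of 10 µM at day 12, and 162 with edgeR. Against day 18 it was 531 without replicate 3 of 0 µM at day 15, 513 without replicate 2 of 10 µM at day 18 and 1598 without replicate 3 of 0 µM at day 18. Replicate 1 of 0 µM at day 18, in which levels fell steeply with transcript length, left 608 when omitted. Against day 18 the share above was 72.9%, 37.6% after median-ratio rescaling and 50.6% with edgeR, so this balance depends on the scaling.

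The difference of HSPA5 lay between those of the 2 neighbouring days. HSPA5 was not raised at day 12 (2002 ± 24.9 CPM without Pb and 1875 ± 45.5 CPM with it, log2 difference -0.09), was raised by 0.37 at day 15 and by 1.3 at day 18 (457 ± 9.07 and 1127 ± 58.9 CPM). Its day 15 difference exceeded that of day 12 by 0.46 (SE 0.0661, adjusted p = 2.98e-05) and fell short of that of day 18 by 0.93 (SE 0.0661, adjusted p = 3.22e-14). In its list, 5 of 24 members were already higher at day 12, HERPUD1 among them (0.24, adjusted p = 0.025), whose day 15 difference was not called different from that (0.14, adjusted p = 0.569). Between days, 6 of the 24 members differed from day 12, all above, and 15 differed from day 18, all below. Without Pb, the HSPA5 level itself was lower at each later day, with a change of library pool before day 18. PDIA4 and CALR were also below their day 18 differences, by 0.82 and 0.73.

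Ribosomal protein genes differed between days 12 and 15. At day 12 none of the 32 had changed (median 0.03), at day 15 30 were lower and at day 18 all 32 were lower (median -0.44). The day 15 difference was below that of day 12 for 20 members and above that of day 18 for 1. Length slopes at day 12 were -0.0524, 0.0046 and 0.0701 at 0 µM and -0.081, -0.082 and -0.12 at 10 µM. At day 12 they were thus lower with 10 µM, whereas at day 15 they were higher, and these genes have short transcripts. The correction for GC content and length was also fitted for this contrast, but its values for these genes are not given here. RPS3 was at 1292 ± 75.9 and 1292 ± 30.2 CPM at day 12, and its day 15 difference was lower by 0.46 (SE 0.0967, adjusted p = 0.00736). GAS5, a non-coding host gene of small nucleolar RNAs whose transcript starts with the same pyrimidine tract as those of ribosomal proteins, was higher with Pb at day 12 (138 ± 2.07 to 180.5 ± 7.63 CPM) and lower at day 15 (log2 difference -0.39), a change of -0.78 (SE 0.106, adjusted p = 1.72e-05). NNAT, an imprinted neuronal gene, was lower with Pb at day 15 (-0.52) and not at day 12 (0.12, adjusted p = 0.308), and SH2D3C, a signalling adaptor, was higher at day 12 (0.50) and did not pass at day 15 (-0.14, adjusted p = 0.307).

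Cholesterol genes, with 0 higher at day 12, 12 at day 15 and 22 at day 18, had 6 members above their day 12 difference. Of the 21 mitosis genes, 19 were lower at each of days 12, 15 and 18, and for no member did the test of day 15 against either neighbour pass. Replication genes differed from day 18, where all 26 were lower with a median of -0.77, and 19 of them fell less at day 15. MCM5 had the smallest p among these, with a gap of 0.68 (SE 0.0759, adjusted p = 2.19e-08).

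Single genes took other courses. COL3A1 fell from 46.2 ± 0.454 to 2.20 ± 0.207 CPM with Pb at day 12, by 2.12 on the log2 scale at day 15, and was at 4.17 ± 1.77 and 3.52 ± 0.75 CPM at day 18, where it did not pass. Its control level had dropped in the meantime, while its level with 10 µM stayed between 1.88 and 3.52 CPM at the 3 days. Day 18 levels are from the other library pool. TWIST2, a mesenchymal transcription factor, was lower at day 12 (-2.43) and did not pass at day 15 (-0.53, adjusted p = 0.1), a change of 1.89 (SE 0.274, adjusted p = 3.14e-05). PLAT, the tissue plasminogen activator, was lower with Pb at day 12 (28.6 ± 1.49 to 20.0 ± 1.07 CPM), higher at day 15 (15.4, 14.3 and 13.1 to 21.04, 24.0 and 19.2 CPM) and did not pass at day 18 (-0.12). Its day 15 difference was above both, by 1.05 (SE 0.145, adjusted p = 1.72e-05) and 0.67 (SE 0.145, adjusted p = 0.0026). CLU had differences of 0.03, 0.49 and 0.00 at the 3 days, and that of day 15 was above both others, by 0.46 (adjusted p = 0.00392) and 0.49 (adjusted p = 0.000332). The differences of TFPI2 and ECM1 instead grew over these 3 days. They were 0.28, 0.98 and 1.58 for TFPI2 and 0.47, 1.46 and 2.27 for ECM1. Mean ECM1 levels were 12.86, 8.22 and 1.299 CPM without Pb, and 18.19, 24.37 and 10.04 CPM with 10 µM. The larger ECM1 difference at day 18 thus came with lower levels than at day 15 at both doses, across the change of library pool. TFPI2 had been lower with 10 µM at day 9 (log2 difference -0.54, adjusted p = 2.19e-06). GFRA2, a receptor for neurturin, and the non-coding RNA HAND2-AS1, a neighbour of HAND2 on the opposite strand, were lower with Pb at day 18 (-1.79 and -0.61) and did not pass at day 15 (-0.16 and -0.05). The strand setting of the counting is not given in the sources used here, so reads of overlapping genes on opposite strands cannot be told apart.

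**Figure D5:**
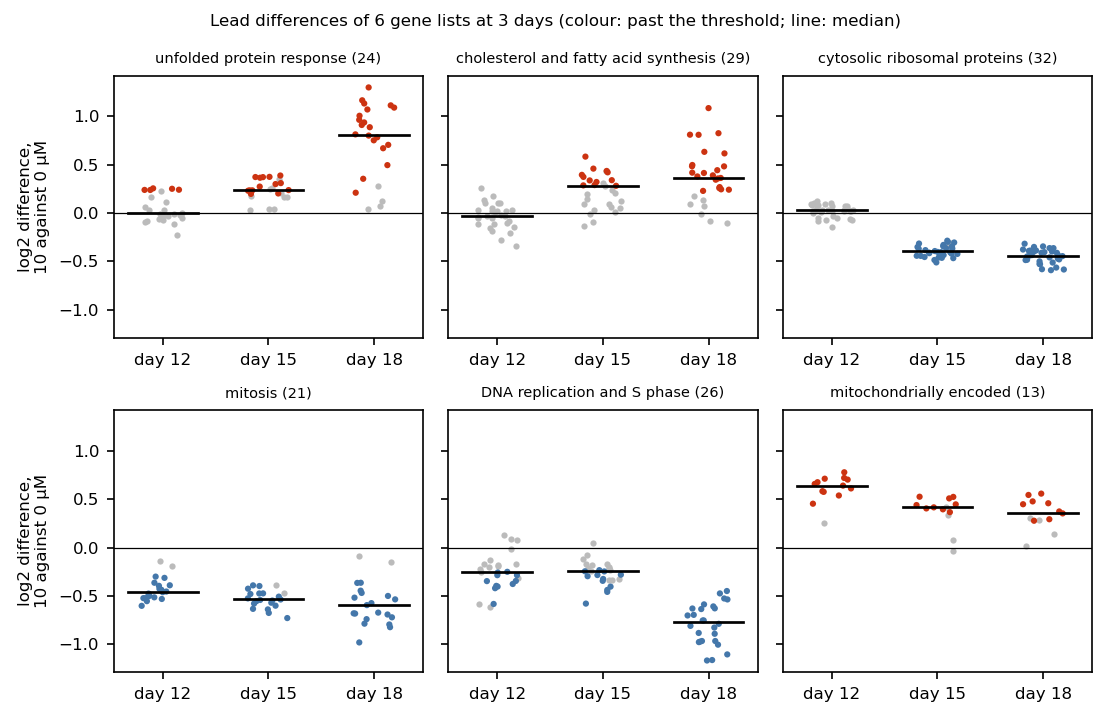
Log2 differences between 10 and 0 µM Pb at days 12, 15 and 18 for the members of 6 gene lists, 1 point per gene; coloured points passed the threshold at that day and lines are list medians. Ribosomal protein genes sit near 0 at day 12 and near -0.40 at day 15, while mitosis genes are below 0 at all 3 days.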

How the data were processed

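Total RNA of SH-SY5Y dishes was sequenced with PlexWell, in which tagmentation adds a well barcode before wells are pooled. The authors deposited 1 table in CPM with 37334 genes and 60 columns, matched to samples by the library names in the labels. The tools were STAR and featureCounts, with FastQC and MultiQC, on the build GRCh38, per the submitters' processing notes. Versions, annotation and strand setting are not given in the sources used here. The values were whole multiples of 1 read within 0.01 read (100% of values), so reads were recovered.

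The 15263 genes that reached 1 CPM in 3 or more libraries were tested. Values of log2(CPM + 1) were fitted with limma 3.58.1 in R 4.3.3 with a variance trend, 1 mean per day and dose over all 60 libraries and 40 residual degrees of freedom. Tests were two-sided, with a threshold of 0.05 after Benjamini-Hochberg adjustment over all genes kept. The differences at days 12 and 18 were set against that at day 15 by interaction contrasts. The label gives 3 replicate dishes a group. The p-values rest on the spread between replicate dishes pooled over all 20 groups, not on that of the groups compared alone.

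The comparison, the gene lists and the genes named were chosen with earlier results of these data known, so the lists are described by counts and medians without a test. Named were the 12 largest rises and falls without overlap between doses and with at least 5 CPM in 1 dose, the 3 rises and 3 falls with the smallest p, up to 4 members of each list with the smallest p, and for each contrast between days the 3 genes on each side with the smallest p. Other members that passed (FAS, OSGIN1, ME1, LDHA, CCNB2, MKI67, HSP90B1 and CALR among them), STC1 and the promoters shown were chosen after their values were seen. A few genes that the rule names, and 1 list, are not reported here. Alternatives were a pseudocount of 0.25, no filter, median-ratio rescaling, only the groups compared, a replicate block, edgeR 4.0.16 on the recovered reads, leaving out day 18 and leaving out each library. A correction for GC content and transcript length (GENCODE, 14617 genes) and the block in the fit of only the 6 libraries were added after seeing the data. Positions and promoters are RefSeq's for GRCh38.p14, which held 15162 of the 15263 symbols. The CPM values given for 3 reads cover counting error only, and the reads carry no molecular identifiers. The SE and SD values come from the spread between libraries.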

Additional observations from a re-analysis of the deposited data

Results flagged for a closer look

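For 294 genes the 10 µM difference at day 15 was unlike that at day 12, and for 802 genes it was unlike that at day 18, by the test of the difference between the 2 days' differences (limma, Benjamini-Hochberg adjustment over all genes). The values in this section are the day 15 difference minus that of the other day, on the log2 scale.

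Against day 12, the difference at day 15 was higher for TFPI2 by 0.70, ECM1 by 0.99, PLAT by 1.05, SCG2 by 0.44, CLU by 0.46, STC1 by 0.66, CDH11 by 0.72 and COL3A1 by 1.76. COL3A1 was still below 0 at both days (-3.88 at day 12 and -2.12 at day 15), as was TWIST2 (-2.43 and -0.53). The transcription factors SOX9 (1.55) and TWIST2 (1.89), the scaffold gene MPP4 (0.90) and the glycolytic regulator PFKFB3 (1.04) were higher too. Chaperones followed, with 0.46 for HSPA5, 0.42 for DNAJB11, 0.38 for PDIA4, 0.26 for CALR, 0.30 for HSPH1 and 0.33 for HSPA8, and so did the sterol enzymes SQLE (0.40), MSMO1 (0.41) and DHCR7 (0.37). Lower than at day 12 were the ribosomal protein genes RPLP0 (-0.33), RPS3 (-0.46), RPS6 (-0.36) and RPL10 (-0.47), the non-coding RNA GAS5 (-0.78), the retinoic acid carriers CRABP2 (-0.53) and CRABP1 (-0.42), and NNAT (-0.63), SH2D3C (-0.64), PRDX2 (-0.36), COX5A (-0.39) and H1-2 (-0.85). Among these, RPS6 (adjusted p = 0.033), CRABP1 (0.0362) and COX5A (0.0419) were near the threshold. Whether each of these calls held without 1 library is not given here.

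Against day 18, ER chaperones had smaller differences at day 15, with -0.93 for HSPA5, -0.82 for PDIA4, -0.73 for CALR, -0.70 for HSP90B1, -0.52 for DNAJB11 and -0.38 for HERPUD1. Also below their day 18 difference were genes with values of -1.07 for GDF15, -0.81 for ECM1, -0.60 for TFPI2, -1.14 for STC1, -0.59 for TIMP1, -0.61 for SCG2, -0.53 for NPY and -0.48 for VIP. The values were -1.33 for FAM30A, -1.22 for CDH11, -0.93 for PFKFB3, -1.05 for EGR1, -0.99 for MID1 and -1.98 for COL3A1, the last of which did not pass at day 18. Above their day 18 difference were the helicase subunits MCM7 (0.54), MCM5 (0.68) and MCM3 (0.42), the noradrenergic genes TFAP2B (0.34) and GATA3 (0.48), HAND2-AS1 (0.56), GFRA2 (1.64), SNAP25 (0.29), CLU (0.49), PLAT (0.67), CGA (0.58), GAS5 (0.37) and KCNQ1OT1 (1.17). PLAT and CLU were the 2 named genes that lay above both neighbouring days.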

How the results depend on the processing

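Of the 15 alternatives for day 15, none changed the sign of a gene named as risen or fallen, and 42 of the 113 such genes kept their call under all 15. Reversals were limited to 4 genes that did not pass: with 1 library left out, differences ran from -0.17 to 0.01 for ALAD, from -0.11 to 0.00 for FTL (0.02 after the GC and length correction), from -0.19 to 0.02 for ERBB3 and from -0.2 to 0.01 for EPCAM.

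Rescaling left 252 genes higher (381 in the report). Fitting only the 6 libraries left 418 calls, 191 higher and 227 lower, with 9 unfolded protein response, 1 NRF2 and 4 immediate early genes higher and 4 replication genes lower; fewer libraries then estimate the spread. Between days, the fit of only the groups compared left 155 (day 12) and 204 (day 18), and edgeR left 162 for day 12. NRF2 rises were 2 after rescaling and 2 after the GC and length correction, and immediate early rises were 5 with edgeR. With 1 library left out, calls ran from 468 to 735, higher genes from 185 to 291, lower genes from 266 to 444, the contrast with day 12 from 66 to 328 and that with day 18 from 513 to 1598. List counts ran from 2 to 4 for NRF2, 3 to 5 for p53, 5 to 10 for mitochondrially encoded and 5 to 7 for immediate early genes.

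Whether replicate numbers pair the dishes is not known. Same-number libraries of day 15 correlated at -0.356, 0.294 and -0.16 in their deviations, and only replicate 2 correlated best with its own number. Deviations from a mean of 3 libraries are tied to each other, so these values cannot exclude pairing by number. With the number as a replicate block, 870 genes passed (353 higher, 517 lower), 389 against day 12 and 757 against day 18. The replicate block in the fit of only the 6 libraries left 116 calls (48 higher, 68 lower), with 1 unfolded protein response, 0 NRF2, 2 p53, 6 cholesterol, 1 mitochondrially encoded and 0 immediate early gene higher, and 1 replication, 11 mitosis and 5 ribosomal protein genes lower. The cause of these shifts was not tested. Depth limits genes under about 0.12 CPM, the value of 3 reads in the shallowest library.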
